A study of Mus musculus with 26 samples.

Results

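Imprinted genes are expressed mainly from 1 parental copy, and 44 of them were described here, out of 55487 genes in the scRR-seq-RNA table, in single blastomeres of mouse 8-cell embryos. They were chosen by name: 27 of the 44 are known as expressed from the paternal copy and 17 from the maternal copy, and they belong to 22 imprinted loci. In scRR-seq, each blastomere is lysed and its chromatin is caught on beads while most RNA stays in the liquid, so that RNA levels and DNA replication state are read from 1 and the same cell. The 2 embryos were made by in vitro fertilization of C57BL/6 oocytes with C57BL/6 sperm, without any treatment or transgene, and were processed in parallel. The tables held 9 cells, 3 of embryo 1 (cells 1, 6 and 7) and 6 of embryo 2 (cells 2, 3, 5, 6, 7 and 8). Because both parents were of 1 strain, the parental copy behind an RNA could not be read, and the words paternal and maternal below give the known class of a gene, not a measurement.

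There was 1 embryo of each kind, and embryo differences are therefore given as values, without a test. Embryo 1 had Xist at 140 to 181 TPM and no Y-linked Eif2s3y or Ddx3y, whereas embryo 2 had both Y-linked RNAs in every cell and Xist at 0.90 TPM or less. Of all bins, 0.00385 to 3.54% were called replicated in each cell of embryo 1 but 62.4 to 80.5% in each cell of embryo 2. Embryo, sex and replication state therefore cannot be told apart. Cells also differed in the numbers that close their labels: the study's sample list gives the 3-µl lysis protocol for numbers 11 to 17 (embryo 1 cell 1, embryo 2 cells 2 and 3) and the 1-µl protocol for 20 to 25 (the other 6 cells). All 10 markers of 8-cell blastomeres had a mean TPM above 1, while none of 9 cumulus and granulosa cell markers and none of 5 sperm markers did. The highest level of a cumulus marker was 6.13 TPM, of Ptx3 in embryo 2 cell 6, and the sperm markers Prm1 and Prm2 stayed at 1.62 TPM or less. Mitochondrial RNA made up 4.28 to 6.77% of TPM in embryo 1 and 5.98 to 18.2% in embryo 2, and since TPM (transcript level scaled to length and to a fixed total per cell) is a share of the RNA of a cell, this moves all other values.

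As background, most imprinted loci carry a stretch of DNA that is methylated in only 1 of the gametes. After fertilization, when methylation is lost from most of the genome, the zinc finger proteins ZFP57 and ZFP445 recognize methylated sites at these stretches and recruit TRIM28, which keeps the mark in place. A smaller class, here Sfmbt2, Slc38a4, Gab1, Jade1 and Smoc1, is silenced on the maternal copy by the histone mark H3K27me3 laid down in the oocyte. Many imprinted genes govern the growth of the fetus and the placenta, the paternally expressed Igf2 promoting growth and the maternally expressed Igf2r, Grb10, Cdkn1c and Phlda2 restraining it.

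Promoter sequence was taken from RefSeq (GRCm38.p6, the assembly behind mm10), which had an entry for 34 of the 44 genes, and the 250 bases before each start were read. The pairs shown first are those on which the results below turn: Snrpn and Magel2, from 1 cluster but in opposite replication states; Igf2r and Airn, a coding gene and the RNA that crosses it; and the Sfmbt2 start from which its main transcripts run. Capitals mark CpG dinucleotides, and no exon of GENCODE M21 overlaps these windows.
Snrpn (chr7:60005200-60005449, minus strand): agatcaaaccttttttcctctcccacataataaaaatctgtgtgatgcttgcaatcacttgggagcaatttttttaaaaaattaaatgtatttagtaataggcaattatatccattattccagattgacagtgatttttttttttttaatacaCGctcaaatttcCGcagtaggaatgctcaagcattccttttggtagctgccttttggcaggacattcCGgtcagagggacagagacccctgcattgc
Magel2 (chr7:62376729-62376978, plus strand): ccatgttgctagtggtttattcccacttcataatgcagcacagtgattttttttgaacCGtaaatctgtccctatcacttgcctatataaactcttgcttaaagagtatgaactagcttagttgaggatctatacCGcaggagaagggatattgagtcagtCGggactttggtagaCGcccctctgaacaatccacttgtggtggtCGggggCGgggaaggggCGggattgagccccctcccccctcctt
Igf2r (chr17:12769707-12769956, minus strand): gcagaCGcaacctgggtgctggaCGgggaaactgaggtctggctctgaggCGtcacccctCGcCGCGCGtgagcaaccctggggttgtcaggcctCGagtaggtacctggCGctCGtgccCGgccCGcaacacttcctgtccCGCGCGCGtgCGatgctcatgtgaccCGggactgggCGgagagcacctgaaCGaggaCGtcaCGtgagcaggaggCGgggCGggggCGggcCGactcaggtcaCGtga
Airn (chr17:12741061-12741310, plus strand): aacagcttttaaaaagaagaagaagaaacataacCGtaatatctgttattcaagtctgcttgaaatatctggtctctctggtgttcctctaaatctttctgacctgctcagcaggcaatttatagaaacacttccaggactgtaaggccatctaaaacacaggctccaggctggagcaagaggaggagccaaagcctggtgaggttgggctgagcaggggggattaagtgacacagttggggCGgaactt
Sfmbt2 (chr2:10372186-10372435, plus strand): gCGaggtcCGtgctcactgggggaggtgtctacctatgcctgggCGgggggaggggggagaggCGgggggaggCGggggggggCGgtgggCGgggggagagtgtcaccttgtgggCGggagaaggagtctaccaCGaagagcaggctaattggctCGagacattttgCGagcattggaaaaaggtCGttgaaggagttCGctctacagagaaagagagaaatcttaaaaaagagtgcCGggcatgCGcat

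The Igf2r window held 27 CpGs and the Airn window 2, the Sfmbt2 window 15, the Magel2 window 7 and the Snrpn window 3. Taking for each gene its window richest in CpG, the median was 19.5 in the 18 imprinted genes with a mean TPM above 1 and 10 in the 16 at or below it. Over all genes the medians were 17 and 4. The windows of the more highly expressed genes were thus richer in CpG among the imprinted genes, as they were among all genes. CpGs at or after a start lie outside the windows and were not counted, so a low count does not describe the whole promoter. Genes also had unequal numbers of windows from which the richest was taken.

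The next 2 windows are shown for the ZFP57 recognition hexamer TGCCGC, searched on both strands (as TGCCGC and as GCGGCA, which do not overlap here). The hexamer, in capitals, occurs in both.
Mest (chr6:30737800-30738049, plus strand): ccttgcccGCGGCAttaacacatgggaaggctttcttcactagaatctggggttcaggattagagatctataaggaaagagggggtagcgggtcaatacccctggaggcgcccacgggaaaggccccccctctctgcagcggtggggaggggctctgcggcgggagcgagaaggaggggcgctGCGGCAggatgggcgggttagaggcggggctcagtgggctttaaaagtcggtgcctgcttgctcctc
Meg3 (chr12:109540746-109540995, plus strand): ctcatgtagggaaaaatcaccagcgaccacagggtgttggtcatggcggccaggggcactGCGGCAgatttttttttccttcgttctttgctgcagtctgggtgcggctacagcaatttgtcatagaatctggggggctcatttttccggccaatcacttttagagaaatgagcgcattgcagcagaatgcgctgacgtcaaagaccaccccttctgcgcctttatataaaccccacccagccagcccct

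The hexamer was in at least 1 window of 7 of the 34 genes (20.6%), which were Copg2, Mcts2, Meg3, Mest, Plagl1, Zdbf2 and Zim1, against 9.84% of all genes. Counted by window it was in 8 of 56 windows (14.3%), against 8.68% of all 32851 windows of this length. Overlapping windows of Mest with the same matches were counted separately. The hexamer itself contains a CpG, and the windows of imprinted genes held a median of 13 CpGs, against 6 over all windows. The part of CpG content in these shares was not tested. The hexamer matches describe the letters of a window and are not evidence of binding. Of the 7 genes, Copg2 and Mcts2 had a mean TPM above 1 in the blastomeres. Mest, which encodes a hydrolase-like protein, was listed at 0 in the embryo 1 cells and at 0 to 3.17 TPM in the embryo 2 cells, and the non-coding RNA Meg3 was at 2.68 TPM in embryo 2 cell 3 and at 0.96 TPM or less elsewhere.

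Of the 44 imprinted genes, 23 (52.3%) had a mean TPM above 1 over the 9 cells, against 48.0% of protein-coding genes and 24.6% of all genes. By class these were 13 of 27 paternally expressed, 10 of 17 maternally expressed, and all 5 of the H3K27me3 class. Only 10 of the 44 exceeded 1 TPM in every cell, whereas 8 were listed at 0 in every cell. The number of imprinted genes above 1 TPM was 22, 20 and 19 in cells 1, 6 and 7 of embryo 1, and 23, 22, 15, 20, 19 and 19 in cells 2, 3, 5, 6, 7 and 8 of embryo 2. The count separated the cells by label number rather than by embryo: it was 22 to 23 for numbers 11 to 17 and 15 to 20 for numbers 20 to 25. Genes of all kinds behaved alike, at 12411 to 13319 above 1 TPM for the lower numbers and 11058 to 11960 for the higher ones.

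**Figure D1:**
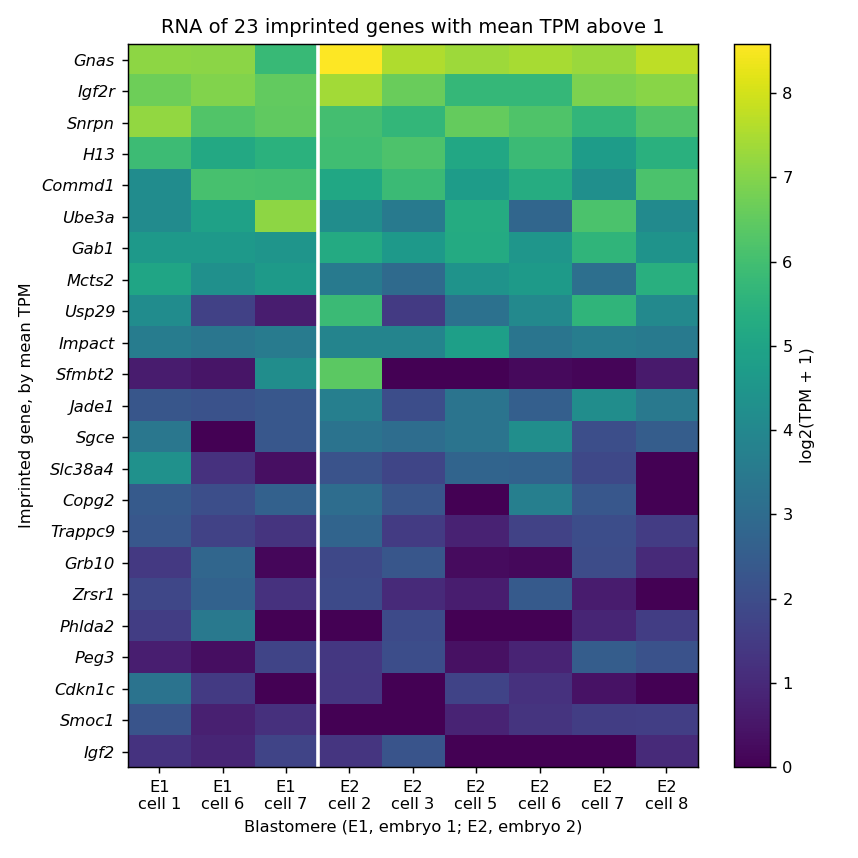
RNA level, as log2(TPM + 1) on the colour scale, of the 23 imprinted genes with a mean TPM above 1 (rows, by mean TPM) in each of 9 blastomeres (columns, embryo 1 left of the white line). Gnas, Igf2r and Snrpn were high in every cell, whereas Sfmbt2 stood out in embryo 2 cell 2 (83.62 TPM) and embryo 1 cell 7 (17.48 TPM).

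Summed over the 44 genes, RNA came to 589 ± 33.3 TPM in embryo 1 (SD, n = 3 cells) and 643 ± 173 TPM in embryo 2 (SD, n = 6 cells). In each cell the sum was between 528 and 668 TPM except embryo 2 cell 2, which had 980 TPM. The embryo means differed by 54.0 TPM, less than the pooled SD of 147 TPM. Gnas, Igf2r and Snrpn together made up 40.03 to 62.67% of the sum.

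Gnas (chr2:174284320-174346744, plus strand) encodes the stimulatory G protein subunit that couples receptors to cyclic AMP. It was at 138.03, 135.38 and 53.89 TPM in cells 1, 6 and 7 of embryo 1. In cells 2, 3, 5, 6, 7 and 8 of embryo 2 it was at 382.10, 186.67, 159.28, 175.77, 156.69 and 211.16 TPM. The cells are given in this order throughout. Every embryo 2 cell was thus above every embryo 1 cell, the only imprinted gene of the 23 above 1 TPM for which the embryos did not overlap. Among all 13648 genes with a mean TPM above 1, 0.843% were higher in embryo 2 without overlap and 2.51% were lower (3.35% in either direction). The difference, embryo 2 minus embryo 1 on the log2(TPM + 1) scale, was 0.996, just under 2-fold, against a pooled SD between cells of 0.58. It was 0.95 among cells numbered 11 to 17 and 1.02 among those numbered 20 to 25, but 0.55 without embryo 1 cell 7, which was the lowest cell.

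The libraries do not mark strand, and Gm20721 (chr2:174330319-174346712) is annotated on the opposite strand across Gnas exons, so reads of the 2 genes cannot be told apart. Adding the 2 together, embryo 1 ranged from 53.89 to 138 TPM and embryo 2 from 161 to 394 TPM, again without overlap. The embryos also stayed apart when TPM was rescaled without mitochondrial genes (at most 147 TPM against at least 181 TPM), where the log2 difference was 1.09. Of the mean Gnas level, 54.9% was in transcripts that GENCODE M21 names, and the rest was in transcripts of the authors' later annotation that were not named here. The largest named part was Gnas-218, a non-coding transcript, at 0 to 146 TPM per cell. Its highest embryo 1 cell (cell 6, 26.58 TPM) lay just below its lowest embryo 2 cell (cell 5, 28.1 TPM). Gnas-218 shares 500 of its 607 bases with the opposite-strand transcript at 97.8% identity. For Gnas-208, the largest named coding transcript, the embryos overlapped. Gnas-208 was highest in embryo 1 cell 1 (60.97 TPM) and lowest in embryo 2 cell 2 (4.35 TPM). Whether coding Gnas RNA as a whole separated the embryos cannot be told, because part of the RNA was in unnamed transcripts.

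Igf2r (chr17:12682406-12769664, minus strand), the receptor that removes IGF2 from the cell surface, was at 102.38, 121.74 and 90.54 TPM in embryo 1. In embryo 2 it was at 168.74, 96.46, 51.23, 51.27, 117.01 and 131.68 TPM. The embryo means of 105 ± 15.7 and 103 ± 46.3 TPM (SD) were within the spread between cells. Airn, the paternal non-coding RNA that runs against Igf2r from within it and silences the paternal Igf2r copy in later tissues, was listed at 0 in 8 cells and at 2.48 TPM in embryo 2 cell 2, the cell with the most Igf2r RNA. Airn and Igf2r overlap on opposite strands, which these libraries do not mark. Reads of Igf2r and of Airn in the shared stretch therefore cannot be told apart.

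Snrpn, which encodes a core protein of splicing snRNPs, was at 143.72, 76.02 and 88.11 TPM in embryo 1. In embryo 2 it was at 63.18, 50.15, 92.08, 74.29, 48.99 and 75.54 TPM. The highest cell was embryo 1 cell 1, and the other 8 overlapped between embryos. The log2 difference was -0.58 with a pooled SD of 0.39, and -0.31 without embryo 1 cell 1. All of this RNA was assigned to Snrpn-201, which starts at chr7:60005111.

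**Figure D2:**
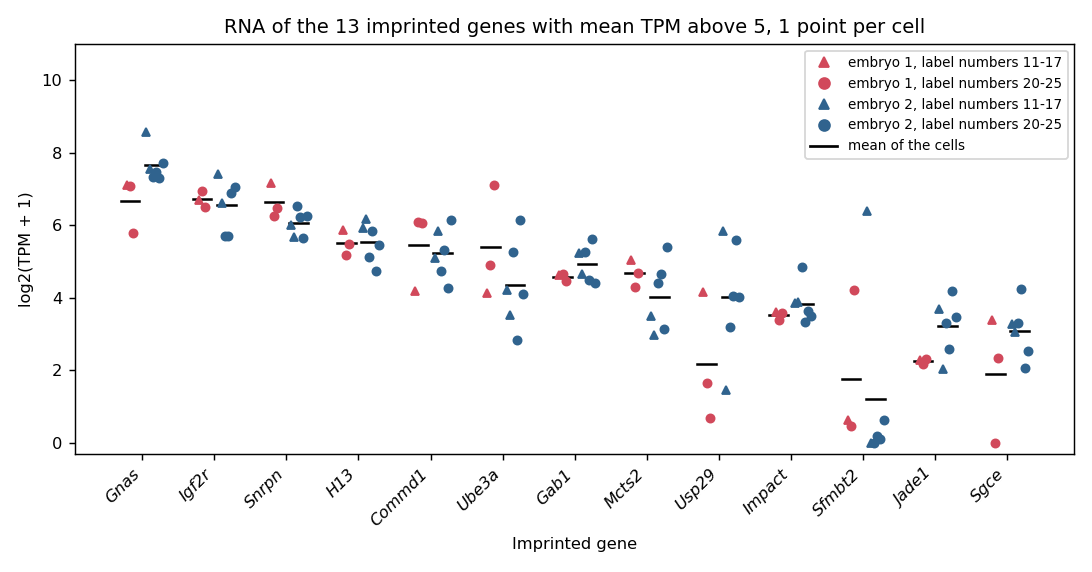
RNA level, as log2(TPM + 1), of the 13 imprinted genes with a mean TPM above 5. Each point is 1 cell (red, embryo 1, 3 cells; blue, embryo 2, 6 cells; triangles, label numbers 11 to 17; circles, 20 to 25) and each bar is the mean of an embryo's cells; the embryos were separate for Gnas and overlapped for the other 12 genes.

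The antisense host RNA Snhg14, which runs from Snrpn across Ube3a and was listed among other imprinted genes, had 1275 to 2438 TPM. Of its mean, 95.6% was in the 294-base transcript Snhg14-215, whose bases 1 to 229 hold matches of at least 85% identity over at least 150 bases to transcripts of 942 other genes. Its level is therefore uncertain, because reads of such repeated sequence can be placed on several genes.

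Ube3a, the ubiquitin ligase of the same cluster, was at 16.71, 28.84 and 138.23 TPM in embryo 1. In embryo 2 it was at 17.47, 10.56, 37.56, 6.19, 70.44 and 16.32 TPM. It was 1 of the 3 genes past a 2-fold difference between embryo means, with -1.03 on the log2 scale, but the pooled SD was 1.304 and the value was -0.17 without embryo 1 cell 7. In that cell 107.27 of the 138.23 TPM were in Ube3a-212, a 442-base transcript. Its level was 28.43 and 48.60 TPM in cells 5 and 7 of embryo 2 and 0 in the other 6 cells.

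Another 2 genes passed the 2-fold limit, Usp29 and Sgce, both higher in embryo 2. The background for these counts was 18.4% of the 13648 genes in either direction, 7.69% higher and 10.7% lower in embryo 2, and the imprinted genes, at 3 of 23, were not above it. Usp29, a ubiquitin-specific protease gene, was at 16.92, 2.16 and 0.60 TPM in embryo 1, against 56.34, 1.77, 8.15, 15.44, 47.54 and 15.36 TPM in embryo 2. The log2 difference was 1.86 with a pooled SD of 1.67. It was 3.05 among cells numbered 20 to 25 and -0.51 among those numbered 11 to 17, so that its direction depended on which cells were compared.

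Usp29 is known to start beside Peg3 from a shared promoter, and the annotated starts lie 147 bases apart. However, 92.9% of its RNA was assigned to Usp29-203, which starts 217 kb further on. Bases 1 to 390 of Usp29-203 hold matches (at least 85% identity over at least 150 bases) to transcripts of 102 other genes, and 2526 of its bases are shared with Zim3-202 on the opposite strand. Zim3 was listed at 39.72 TPM in embryo 2 cell 5, at 1.46 TPM in embryo 1 cell 6 and at 0 elsewhere. Peg3, a zinc finger gene, was at 0.26 to 4.77 TPM, and it was not highest in the cell with the most Usp29 RNA (1.63 TPM in embryo 2 cell 2). Zim1, in the same cluster, was listed at 0 in every cell.

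Sgce encodes epsilon-sarcoglycan and starts back to back with Peg10, a gene derived from a retrotransposon. It was at 9.49, 0.00 and 4.06 TPM in embryo 1, against 8.68, 7.40, 8.81, 17.86, 3.18 and 4.83 TPM in embryo 2. Its log2 difference of 1.17 (pooled SD 1.12) rested on the 0 in embryo 1 cell 6, since it was 0.22 without that cell, and it was -0.22 among cells numbered 11 to 17. Peg10 stayed at 1.35 TPM or less.

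Over the 23 genes, the median difference, embryo 2 minus embryo 1 on the log2 scale, was -0.20, with 8 genes above 0 and 15 below. Over all 13648 genes it was -0.04. Within the label numbers the median over the 23 genes was 0.18 (11 to 17) and -0.04 (20 to 25). The sign of the median thus was not kept between these sets of cells. Among 41 other imprinted genes, 17 had a mean TPM above 1, and none of these was past 2-fold or separate between embryos.

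The genes differed widely in how much they varied from cell to cell. Among the 13 with a mean TPM above 5, the SD of log2(TPM + 1) over the 9 cells was lowest for Gab1 (0.43), Impact (0.46), H13 (0.46) and Snrpn (0.47). It was highest for Sfmbt2 (2.29), Usp29 (1.82) and Ube3a (1.33). Paternally expressed genes summed to 147 to 272 TPM in the cells of embryo 1, against 120 to 299 TPM in those of embryo 2, and maternally expressed genes to 353 to 413 TPM, against 311 to 681 TPM. The maternally expressed sum was the larger in every cell, with all Gnas RNA counted as maternal. Without Gnas this order was not kept in every cell, for example not in embryo 1 cell 1.

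Sfmbt2, a Polycomb group gene of the H3K27me3 class, varied most. It was at 83.62 TPM in embryo 2 cell 2, at 17.48 TPM in embryo 1 cell 7, and at 0.56 TPM or less in the other 7 cells, 2 of which were listed at 0. The 2 cells carried different label numbers, 16 and 21. In embryo 2 cell 2 the RNA was in Sfmbt2-201 (45.41 TPM), Sfmbt2-205 (25.89 TPM) and Sfmbt2-202 (12.32 TPM), and in embryo 1 cell 7 it was all in Sfmbt2-205. Sfmbt2-201 and Sfmbt2-205 start at chr2:10372450 and chr2:10372436, just after the window printed above.

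The other genes of this class differed less among cells. Gab1, an adaptor of receptor tyrosine kinases, was at 23.94, 24.07 and 21.15 TPM in embryo 1, against 36.87, 24.04, 37.11, 21.66, 48.07 and 20.32 TPM in embryo 2. Jade1, a subunit of the HBO1 histone acetyltransferase complex, was at 3.90, 3.48 and 4.00 TPM in embryo 1, against 12.02, 3.10, 8.93, 5.03, 17.37 and 10.10 TPM in embryo 2. All embryo 2 cells but cell 3 were above the embryo 1 cells for Jade1, with a log2 difference of 0.96 and a pooled SD of 0.66.

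Slc38a4, an amino acid transporter, was at 19.35, 1.33 and 0.28 TPM in embryo 1, against 3.54, 2.45, 5.80, 5.46, 2.59 and 0.00 TPM in embryo 2. It differed by 1.29 on the log2 scale between label numbers 11 to 17 and 20 to 25 (pooled SD 1.23), a value set by embryo 1 cell 1. The difference was 3.56 within embryo 1 and 0.16 within embryo 2. Most of its RNA (77.4%) was in Slc38a4-202, which starts 35.6 kb inside the gene. Smoc1, which encodes a calcium-binding matrix protein, was at 3.71 TPM or less in every cell.

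**Figure D3:**
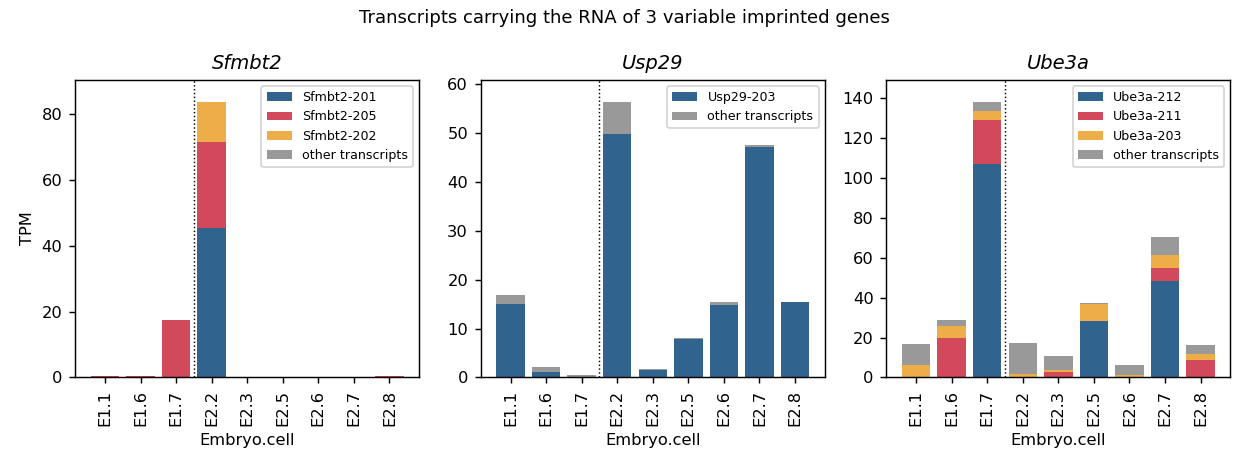
TPM per cell (bars, embryo 1 left of the dotted line) of Sfmbt2, Usp29 and Ube3a, divided by transcript; each panel has its own scale. Sfmbt2 was seen mainly in embryo 2 cell 2 and embryo 1 cell 7, Usp29-203 carried most of Usp29, and Ube3a-212 was seen in 3 cells.

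Several paternally expressed genes are retrogenes placed inside a host gene. Mcts2, a copy of the translation factor gene Mcts1, lies in an intron of H13, which encodes signal peptide peptidase. Mcts2 was at 31.89, 18.66 and 24.73 TPM in embryo 1, against 10.38, 6.84, 20.45, 24.39, 7.77 and 41.62 TPM in embryo 2. H13 was at 57.51, 35.16 and 43.66 TPM in embryo 1, against 60.28, 71.16, 34.23, 56.07, 25.63 and 42.75 TPM in embryo 2. Neither gene separated the embryos, with log2 differences of -0.65 (pooled SD 0.84) and 0.04 (pooled SD 0.49). Reads of Mcts2 may be shared with the X-linked Mcts1, which was at 33.88 to 335.9 TPM, since the transcripts match at 83.8% over 671 bases.

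H13 was the only imprinted gene of the 23 for which cells numbered 11 to 17 (57.5 TPM or more) did not overlap those numbered 20 to 25 (56.1 TPM or less). Over all genes this held for 7.36%. The separation was lost when mitochondrial genes were left out of the scaling (61.4 TPM against up to 61.8 TPM). Past a 2-fold difference between these ranges were Sfmbt2 and Slc38a4, higher in numbers 11 to 17, and Ube3a, lower. These were 3 of 23 genes against 20.8% of all genes (16.1% higher and 4.67% lower). The log2 difference was 1.41 for Sfmbt2 (pooled SD 2.33) and -1.11 for Ube3a (pooled SD 1.29), each below its pooled SD. For Sfmbt2 it was -1.70 within embryo 1 and 2.97 within embryo 2, so its direction was not kept. The median of the 23 differences was 0.43 and that of all genes 0.29. Within embryo 1 these medians were 0.08 and 0.29, and within embryo 2 they were 0.23 and 0.26. The imprinted genes were thus not above all genes within either embryo.

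Zrsr1, a copy of the splicing factor gene Zrsr2, lies inside Commd1, which encodes a protein of copper and endosomal transport. Commd1 was at 17.22, 67.22 and 65.75 TPM in embryo 1, against 33.57, 56.05, 25.77, 38.64, 18.30 and 70.08 TPM in embryo 2. Its cells overlapped widely (log2 difference -0.21, pooled SD 0.83). Zrsr1 was at 5.53 TPM or less, and its transcript Zrsr1-202 matches Zrsr2 at 77.4% over 1285 bases. The X-linked Zrsr2 itself had 38.3 to 49.1 TPM in the cells of embryo 1 but 5.49 to 26.7 TPM in those of embryo 2, without overlap.

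Impact, an inhibitor of the GCN2 stress kinase, was at 11.13, 9.38 and 10.87 TPM in embryo 1, against 13.50, 13.80, 27.73, 8.99, 11.46 and 10.36 TPM in embryo 2. The highest cell, embryo 2 cell 5, had 13.54 TPM of it in the retained intron Impact-205, which was at 0 in the other 8 cells. In the main transcript, Impact-201, that cell had 14.19 TPM against 2.88 to 11.46 TPM elsewhere.

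Apart from Igf2r, the growth regulators were low. Igf2 was at 3.64 TPM or less, Grb10 at 6.08 TPM or less, Cdkn1c at 8.74 TPM or less and Phlda2 at 10.12 TPM or less, and each was below 1 TPM in at least 3 cells. Copg2, a coat protein gene beside Mest, and Trappc9, a trafficking gene that holds Peg13, were at 12.13 and 5.85 TPM or less. None of these 6 genes separated the embryos.

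The genes listed at 0 in all 9 cells were Dlk1, H19, Magel2, Mirg, Ndn, Nnat, Rtl1 and Zim1. The other 13 genes with a mean TPM at or below 1 were Zdbf2, Rian, Mest, Plagl1, Kcnq1ot1, Peg10, Meg3, Airn, Peg13, Rasgrf1, Kcnq1, Mkrn3 and Ascl2, and none of them exceeded 3.17 TPM in any cell. The 7 non-coding RNAs among the 44 (Airn, H19, Kcnq1ot1, Meg3, Mirg, Peg13, Rian) all had a mean TPM below 1, and together came to 0.29 to 3.76 TPM per cell. The RNA came from the supernatant of the beads, and part of the nuclear long non-coding RNA is known to stay on the beads, so its part in these low values was not tested. The tables keep no read depth, so a value of 0 sets no upper limit on the RNA of a gene.

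The 14 factors that protect or silence imprints were above 1 TPM in every cell. Dppa3, which shields imprints from oxidation, was at 1138 to 2169 TPM and Trim28 at 433 to 1309 TPM. Zfp57 ranged from 3.07 to 32.69 TPM and Zfp445 from 9.33 to 44.65 TPM over all cells. The Polycomb genes Eed, Ezh2 and Suz12, whose complex writes H3K27me3, were at 111 to 381 TPM. None of the 14 was past 2-fold or separate between embryos.

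As background, active and CpG-rich parts of the genome tend to replicate early in S phase and silent parts late. Replication state was read as replicated (1), unreplicated (-1) or without data (0) in 40-kb bins, and a gene took the state that prevailed among its bins. Of the 44 genes, 39 had bins. Sgce, Peg10, Mest and Copg2 on chromosome 6 and Plagl1 on chromosome 10 had none. In embryo 2, the share of imprinted genes replicated was 87.2, 79.5, 89.7, 51.4, 92.1 and 87.2% in cells 2, 3, 5, 6, 7 and 8. Over all genes it was 90.0, 85.7, 88.4, 73.7, 90.9 and 89.9%. The imprinted genes were thus slightly above all genes in cells 5 and 7, below them in cells 2, 3 and 8, and furthest below in cell 6, the cell with the fewest replicated bins (62.4%). Counting each locus once, 68.4% of loci were replicated in cell 6, nearer to the 73.7% of all genes.

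**Figure D4:**
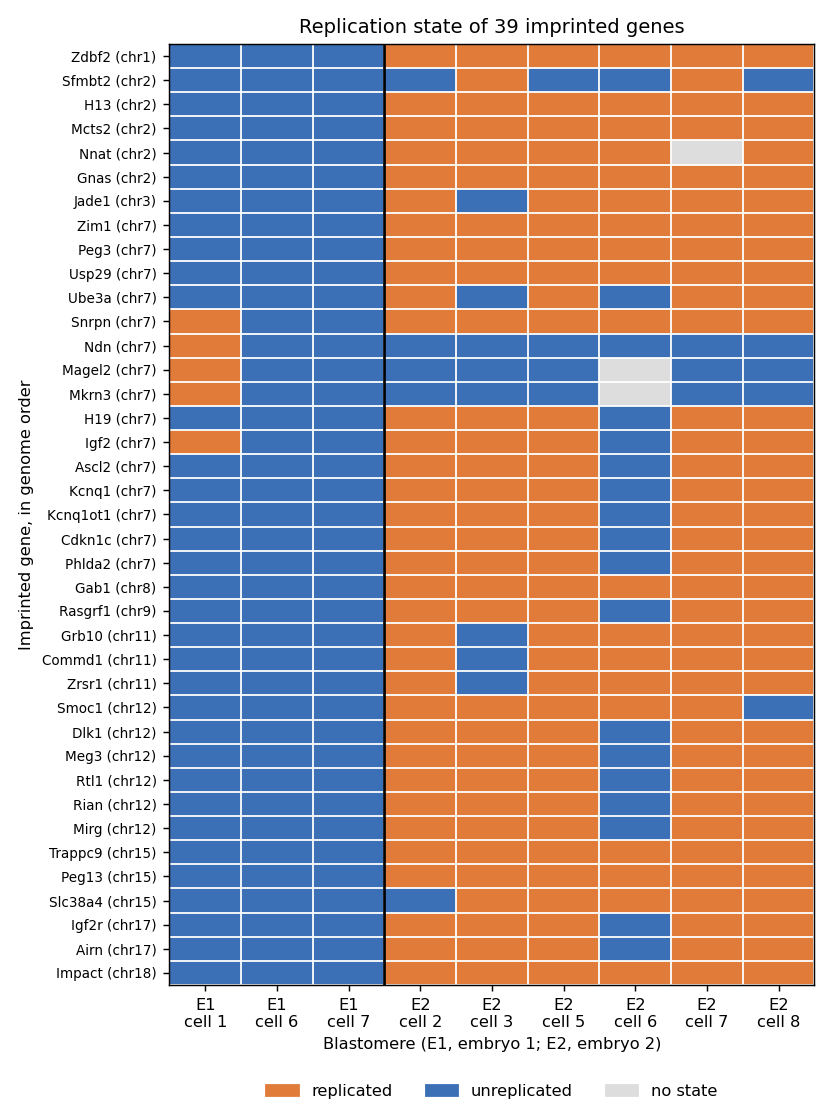
Replication state of the 39 imprinted genes with bins (rows, in genome order, with the chromosome) in each blastomere (columns; embryo 1 left of the black line). Orange is replicated, blue unreplicated and grey without a state; the blue blocks of embryo 2 cell 6 cover the Dlk1-Meg3, Igf2r and distal chromosome 7 loci.

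The states fell into patterns by locus. Replicated in all 6 cells of embryo 2 were 12 of 39 genes (30.8%), against 60.8% of all genes. They were Gnas, H13, Mcts2, Gab1, Impact, Usp29, Peg3, Zim1, Zdbf2, Trappc9 and Peg13, and Snrpn. Unreplicated in cell 6 alone were 15 genes (38.5%), against 14% of all genes. Because these 15 genes lie in only 4 loci (Dlk1-Meg3, Igf2r, Rasgrf1 and distal chromosome 7), the share was smaller when each locus was counted once, at 4 of 19 (21.1%), while 7 of 19 loci (36.8%) were replicated in all 6 cells.

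Unreplicated in cell 3 alone were Grb10, Commd1, Zrsr1 and Jade1 (10.3%, against 3.12% of all genes), 3 of them on chromosome 11. Slc38a4 was unreplicated in cell 2 alone and Smoc1 in cell 8 alone. Nnat was replicated in 5 cells and had no data in cell 7. Ndn was unreplicated in all 6 cells, and Magel2 and Mkrn3 in 5 with no data in cell 6, so that 3 of 39 genes (7.69%) were replicated in no cell, against 3.48% of all genes. All 3 belong to 1 locus.

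Split by RNA level, the 21 genes with bins and a mean TPM above 1 were replicated in 87.3 ± 11.1% of cases per embryo 2 cell (SD, n = 6 cells), and the 18 at or below 1 TPM in 73.4 ± 23.7%. For all genes the shares were 94.1 ± 6.19% and 83.6 ± 6.64%. The difference between expressed and low genes had the same direction in both, and in the imprinted genes it came mainly from cell 6, where the shares were 71.4 and 25%. Most of the low genes unreplicated in cell 6 lie in the Dlk1-Meg3 and distal chromosome 7 loci. Linked genes were thus counted separately in the share of 25%. In the other 5 cells the low imprinted genes were at 82.4 or 83.3%, and in cell 3 the expressed ones were below them, at 76.2%.

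The central chromosome 7 cluster held both extremes. Snrpn, at 49.0 to 92.1 TPM in embryo 2, was replicated in all 6 cells in each of its 5 bins, whereas Ndn, Magel2 and Mkrn3, 2.21 Mb further along and at 0 TPM in all 6 cells, were unreplicated or without data. The replicated block over Snrpn ended in every cell well before Ndn, at 60.36 Mb in cell 7, 60.40 Mb in cell 5, 60.44 Mb in cell 8, 60.52 Mb in cell 6 and 60.72 Mb in cells 2 and 3. Between its end and Ndn lay 1.63 to 1.99 Mb, most of it unreplicated. On the other side, the block met a stretch that had no bins in the table. The Snrpn and Magel2 promoter windows printed above, with 3 and 7 CpGs, lie on either side of this boundary.

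**Figure D5:**
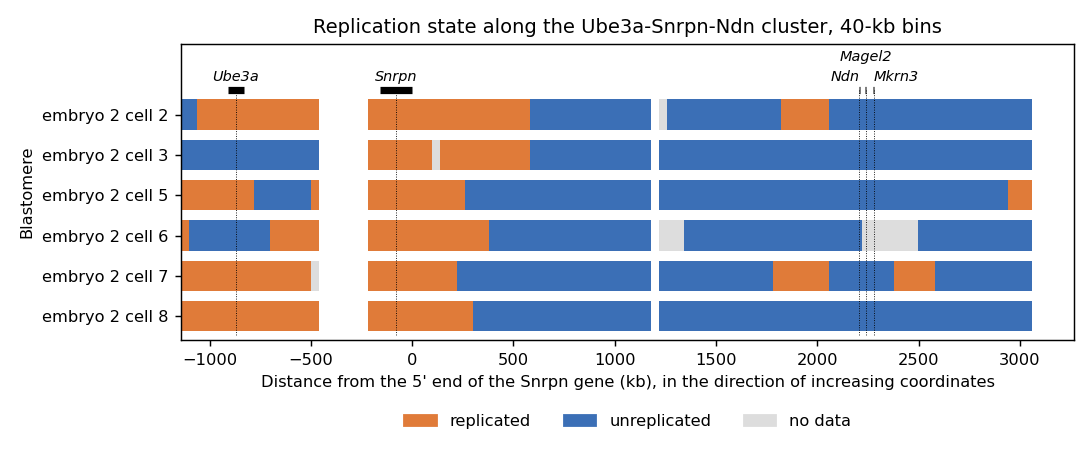
Replication state of 40-kb bins in the 6 embryo 2 cells (rows) by distance in kb from the upper end of the Snrpn gene; orange is replicated, blue unreplicated, grey without data, and white gaps are stretches with no bins in the table. Black bars and dotted lines mark the genes; the replicated block over Snrpn ended 220 to 580 kb from this point in every cell, before Ndn, Magel2 and Mkrn3.

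In embryo 1, no imprinted gene was called replicated in cells 6 and 7. A cell outside S phase has a uniform profile whether its DNA is yet to be copied or already copied, so the state -1 in these cells does not tell those apart. In cell 1, Snrpn, Ndn, Magel2, Mkrn3 and Igf2 were called replicated. That cell stands apart on chromosome 7, which held 1438 of its 1838 bins called replicated. Of chromosome 7, 43.2% was called replicated, against 0.822% of the other chromosomes. For representative cells of the same embryo, the paper describes uniform profiles except in regions with chromosomal abnormalities. Whether the state called on chromosome 7 reflects replication or such an abnormality was not tested. Ndn, Magel2 and Mkrn3, called replicated here, were replicated in no cell of embryo 2. The chromosome 7 RNA of embryo 1 cell 1 was 9.14% of autosomal TPM, against 7.22 to 8.30% in the other 8 cells. Against the other cells of its embryo, its RNA was higher by a median of 0.50 on the log2 scale over chromosome 7 genes and by 0.28 over genes of the other autosomes. Of the 5 genes called replicated there, Snrpn (143.72 TPM) and Mkrn3 (0.74 TPM) were highest in this cell, Igf2 (1.38 TPM) was not, and Ndn and Magel2 were at 0. Of the 11 imprinted genes of chromosome 7 with RNA in any cell, 3 were highest in it, the third being Cdkn1c (8.74 TPM), which was called unreplicated. The part of the chromosome 7 state in these RNA values was not tested.

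Only Ube3a and Sfmbt2 had at least 2 embryo 2 cells in each state, so that RNA could be set beside replication of the same gene in the same cell. Ube3a was unreplicated in cells 3 and 6, where it had 10.56 and 6.19 TPM, and replicated in cells 2, 5, 7 and 8, where it had 17.47, 37.56, 70.44 and 16.32 TPM. The 2 unreplicated cells were the lowest of the 6. However, 28.43 TPM in cell 5 and 48.60 TPM in cell 7 were in the 442-base transcript Ube3a-212, which was at 0 in both unreplicated cells. The rank of cell 5 above cell 3 rested on that transcript. Sfmbt2 was replicated over all 6 bins in cells 3 and 7, which had 0.00 and 0.08 TPM. In the 4 cells called unreplicated it had 83.62, 0.00, 0.15 and 0.55 TPM, and in cell 2, the one with 83.62 TPM, 1 of its 6 bins was replicated. The 2 genes thus gave no common order of RNA and replication, and with so few cells no test was made.

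For genes unreplicated in 1 cell, that cell held no fixed rank. Jade1 was lowest of the embryo 2 cells in its unreplicated cell 3 (3.10 TPM against 5.03 to 17.37 TPM), and Igf2r in its unreplicated cell 6 (51.27 TPM) was level with cell 5 (51.23 TPM), where it was replicated. Grb10, by contrast, was highest in its unreplicated cell 3 (3.93 TPM), and Commd1 was second highest in cell 3 (56.05 TPM).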

How the data were processed

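For RNA, the authors deposited TPM (length-scaled transcript levels with a fixed total per cell) per gene and per transcript, from reads set to a common number, aligned with Hisat and quantified with RSEM against GENCODE M25 in the ramdaq pipeline; depth is not kept. For DNA, reads were aligned to mm10 with BWA (0.7.17-r1188 in the submitters' processing notes) and AneuFinder called 40-kb bins, deposited as a score of 1, -1 or 0. Each of the 3 tables had 14 columns without a label of this series, which were not used, and 4 of the 13 labelled cells were not analysed here. RNA columns, whose headers repeat 1 cell name, were matched by closing number.

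Genes were matched by identifier to GENCODE M21 (55227 of 55487). Differences are of mean log2(TPM + 1) with the SD between cells, over genes with a mean TPM above 1 where stated; no p-value was computed. Genes named with values were those with a mean TPM above 5, or above 1 with separate embryos or a 2-fold difference between embryos or label numbers, and those at 0 in every cell; others are given by range, except where 1 cell or the printed sequence singled them out after values were seen. The 44 genes and all lists were chosen with earlier results of these data known. Transcript identity was read with blastn 2.17.0+. Scripts were tested on simulated data; Python 3.11.15, numpy 2.4.6, pandas 2.3.3 and matplotlib 3.10.9 were used.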

Additional observations from a re-analysis of the deposited data

Results flagged for a closer look

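Within the 6 cells of embryo 2, 16 measures were examined for 1 cell far from the other 5 (a gap to the nearest cell beyond the 95% critical value of Dixon): the detected number, the summed level, the share replicated, and the 13 genes with a mean TPM above 5 on the log2 scale. For independent measures with normal values, about 1 in 20, or 0.80 of 16, would be flagged by chance. The measures here are not independent, and the cells came from 2 lysis protocols. The 5 that were found are therefore a description and were not weighed against that number. Embryo 2 cell 2 stood apart in the summed level (979.74 TPM, gap 0.689 of the range), in Gnas (382.1 TPM, 0.666) and in Sfmbt2 (83.62 TPM, 0.901). These 3 are not separate observations, since Gnas and Sfmbt2 are part of the sum. Embryo 2 cell 5 stood apart in Impact (27.73 TPM, 0.628), with the retained intron described above. Embryo 2 cell 6 stood apart in the share of imprinted genes replicated (51.4%, 0.690), being also the cell with the fewest replicated bins; with each locus counted once its share was 68.4%. For none of the 13 genes did the label numbers separate the cells of the embryos in opposite directions.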

How the results depend on the processing

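The mean number of imprinted genes above 1 TPM, 19.9 per cell, was 26.9 above 0 TPM, 12.2 above 5 TPM and 22.3 in cells numbered 11 to 17, and 19.5 to 20.5 when 1 cell was left out. The mean sum, 625 TPM, was 447 TPM without Gnas and 581 to 637 TPM with 1 cell left out, lowest without embryo 2 cell 2. The 3 genes past 2-fold between embryos became 13 with a pseudocount of 0.1 (34.2% of all genes at that setting), 7 within label numbers 11 to 17 (28.7% of all genes), 10 within 20 to 25 (26.9%), and 3 to 7 with 1 cell left out, at 7 without embryo 1 cell 1 (25.05%), 6 without embryo 1 cell 7 (21.1%) and 5 without embryo 2 cell 3 (20.2%); these are 56.5, 30.4, 43.5, 30.4, 26.1 and 21.7% of the 23 genes, in the order given. Rescaling without mitochondrial genes or centring each cell gave 4, and so did leaving out the filter on low values, the gene added by the latter being Zdbf2 (0.66, 1.69 and 2.98 TPM in embryo 1, 0.05 to 0.83 TPM in embryo 2), named after its values were seen. The median embryo difference ranged from -0.31 to -0.08 and the median label-number difference from 0.18 to 0.58 with 1 cell left out. The share replicated in embryo 2 ranged from 79.0 to 87.1% (highest without cell 6). Adding Gm20721 to Gnas, chosen after the data were seen, gave a log2 difference of 1.104. Usp29 (-0.51) and Sgce (-0.22) reversed within label numbers 11 to 17, where embryo 1 is a single cell. Over 345 alternatives for 23 genes, 332 stayed within the pooled SD of the reported value, 11 moved further and these 2 were counted as reversed. The causes were not tested. Genes with a reported difference below the pooled SD also changed sign. Within label numbers 11 to 17, Sfmbt2 went from -0.55 to 2.56 and Commd1 from -0.21 to 1.29. With 1 cell left out, the sign changed for Igf2r, Cdkn1c, Grb10, H13, Commd1, Sfmbt2, Slc38a4 and Trappc9. Transcript sums could not be formed for Gnas, Rian and Zdbf2, whose transcripts were not all named. No paired analysis was possible because no test was run and the cell numbers name blastomeres of separate embryos.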
